A study of Mus musculus with 4 samples.

Results

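Cadherins, protocadherins and catenins are the parts of the junctions through which neighbouring cells hold each other. The arrays carried 131 probes outside the controls whose gene name is a numbered cadherin (Cdh), a protocadherin (Pcdh) or an alpha, beta or delta catenin (Ctnna, Ctnnb, Ctnnd), of 41174 probes in all. They name 73 genes, and 129 of the probes were printed in 1 feature each. By subfamily there were 9 probes for type I classical cadherins, 28 for type II cadherins, 7 for other cadherins, 27 for non-clustered protocadherins, 45 for clustered protocadherins and 15 for catenins.

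A classical cadherin spans the membrane, binds the same or a similar cadherin on the next cell in the presence of calcium, and holds beta catenin and the delta catenin p120 with its tail. Alpha catenin joins this complex to actin. Type I members (E-, N-, P- and R-cadherin) form the tight zones of epithelia, nerve and muscle, while type II members such as Cdh11, the cadherin of mesenchyme, are found in looser tissue. Protocadherins have related outer domains but do not bind beta catenin, and their clustered genes are best known for giving neurons a cell surface identity.

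Mouse embryonic fibroblasts of strain C57BL/6J were labelled Lats2-/- (here labelled KO) or Lats2+/+ (labelled WT). The kinase that Lats2 encodes belongs to the Hippo pathway, through which crowding reaches the nucleus. The low density culture of each genotype was sampled at 48 hours, before confluence, and the high density culture at 3 to 5 days, so that density and time in culture changed together and cannot be told apart. Each genotype had 2 arrays that compared its low with its high density culture, the second with the dyes exchanged. This gives 1 replicate for each genotype and density, so no test was possible, and a spread quoted here is that between the arrays of a dye swap. The labels do not say how many embryos gave the cells, nor whether the arrays of a pair shared their RNA extracts. The gene is spelled LAT2 in the source names and Lats2 in the genotype field.

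No feature was saturated. The share well above background was 62.6% and 67.7% in the channels of the first array labelled KO and 52.8% to 56.2% in the other 6 channels. Both arrays labelled WT were on 1 slide, and those labelled KO were on 2 other slides scanned 7 months apart, so slide and scan day cannot be told apart from genotype. Of the 4 Lats2 probes, 3 were higher on the arrays labelled KO, by log2 differences of 1.19 to 1.39 at low density and 0.91 to 1.49 at high density. The fourth, farthest upstream, was lower by -0.63 and -1.26. The genotype names below are therefore labels. All 8 fibroblast marker genes were well above background on both arrays of every group, but their levels differed. Pdgfra was higher in the cells labelled KO by 4.46 at low and 3.10 at high density, and Fn1 fell with density by 1.60 under the WT label and rose by 1.03 under the KO label. In all 2 of the 8 rose and 2 fell with density under the WT label, against 7.61% and 5.72% of all probes tested. Under the KO label 5 rose and 1 fell, against 5.9% and 3.73%. The part of these marker genes in the results was not tested.

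Signals are given as log2 of the normalised intensity, on which each probe is compared only with itself. A probe is called detected in a group when it was well above background on both arrays. The lowest signal of any detected probe lay between 5.74 and 6.32 in the 8 channels. A mean log2 ratio of 1 or more in size (2-fold) was called when both arrays of the pair gave it the same sign, or both dyes for a contrast between genotypes. The words rose and fell are kept for such probes.

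Of the 131 member probes, 77 were detected in 1 group or more, 42 in all 4 groups, 13 on single arrays only, and 41 in no channel. The share detected grew with density under both labels. It was 36.6% (48 probes) at low and 46.6% (61) at high density in the cells labelled WT, and 43.5% (57) and 50.4% (66) in those labelled KO. Over all probes on the arrays the same shares were 51.6%, 52.6%, 54.5% and 55%. Most of the growth came from the clustered protocadherins, which went from 20 to 29 detected probes of 45 in the cells labelled WT and from 24 to 34 in those labelled KO.

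**Figure D1:**
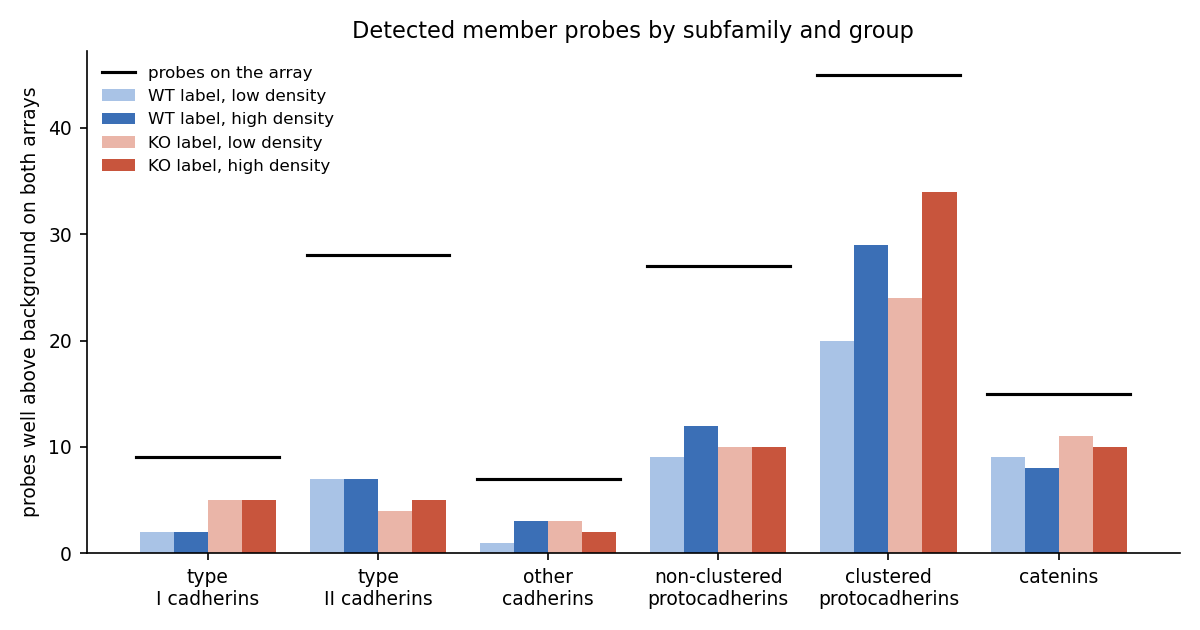
Number of member probes well above background on both arrays of a group (vertical axis), by subfamily, for the 4 groups (coloured bars), with the number of probes on the array as a black line. The clustered protocadherins gained probes at high density under both labels. Type I cadherins had 2 detected probes, of 2 genes, in the cells labelled WT and 5, of 3 genes, in those labelled KO.

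In total 19 genes had no probe above background in any channel. They were Cdh1, Cdh5, Cdh6, Cdh7, Cdh8, Cdh9, Cdh12, Cdh17, Cdh19, Cdh22, Cdh23, Cdh24, Ctnna3, Pcdh8, Pcdh11x, Pcdh12, Pcdh15, Pcdhb1 and Pcdhga12. Among them are E-cadherin (Cdh1), which holds epithelial cells together, and VE-cadherin (Cdh5), which does so for endothelium. Of 8 epithelial markers 1 to 3 were detected in a group (Krt14, Krt18 or Krt19), with Tacstd1 (now Epcam), Krt8 and Cldn4 in none, and of 6 endothelial markers only Kdr was, in the cells labelled WT at low density. Krt19 gave -2.17 with density under the WT label and -2.19 under the KO label, and -1.94 between the labels at low density. At high density it was above background on 1 of 2 arrays labelled KO, so the second value is not exact. The part of these markers in the results was not tested. A further 5 genes (Cdh15, Pcdh10, Pcdha4, Pcdhb8 and Pcdhga9) were above background on single arrays only. Cdh15, the cadherin of skeletal muscle precursors, was so on 1 array at each density of the cells labelled KO, while Myog, Myf5 and Des, which mark muscle, were detected in no group. Actc1, from the same muscle list, was detected in all 4 groups, at 12.42 to 15.13.

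With density, 7 of 64 tested member probes rose and 3 fell in the cells labelled WT, against 7.61% and 5.72% of all 22591 probes tested. Under the KO label 17 of 68 rose and 0 fell, against 5.9% and 3.73% of 23595. By gene, 6 of 44 tested rose and 2 fell in the cells labelled WT, and 14 of 44 and 0 in those labelled KO. The median over the tested members was 0.45 and 0.55 on the log2 scale, against 0.01 and 0.01 over all probes. A tested probe had to be detected at 1 density or more, and such a filter can itself favour probes that changed. Among the 42 member probes detected in all 4 groups, the mean log2 ratio was above 0 for 32 in the cells labelled WT and for 33 in those labelled KO (76.2% and 78.6%), against 49.7% and 50.1% of all probes so detected. Under median centring of each array in place of loess, 6 member probes rose and 3 fell in the cells labelled WT and 12 rose and 0 fell in those labelled KO, although the share of rises among all called probes then went from 57.1% to 43.9% and from 61.3% to 40.3%. With the processed signals of the scanner software, 23 rose and 7 fell under the WT label and 30 rose and 1 fell under the KO label. With a normexp offset of 10 the counts were 12 and 5, then 23 and 1.

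**Figure D2:**
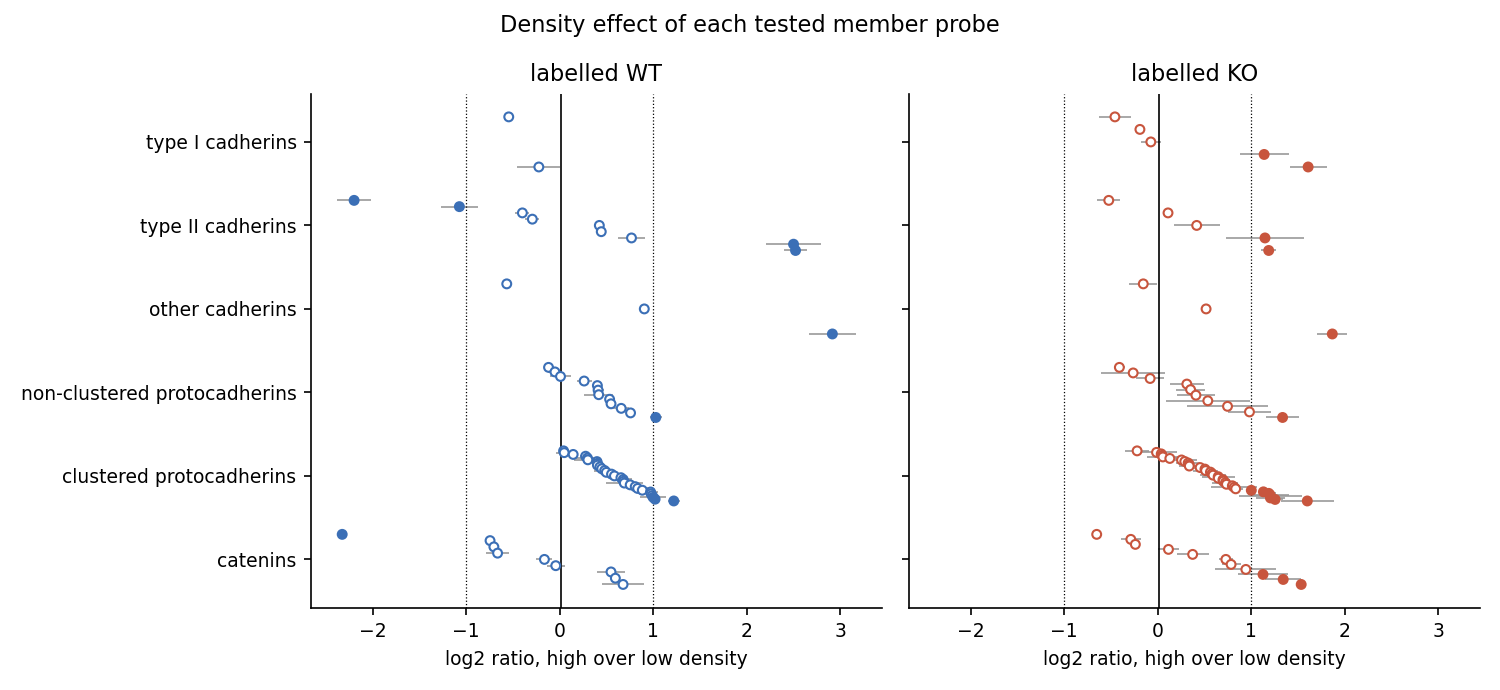
Log2 ratio of high over low density (horizontal axis) for each tested member probe, by subfamily, in the cells labelled WT (left) and KO (right). Points are means of the dye swap, grey lines join its arrays, filled points passed the 2-fold size with 1 sign on the arrays of the pair, dotted lines mark 2-fold and the solid line is the median of all probes tested. No tested clustered protocadherin lay below 0 in the cells labelled WT, and no member lay past -1 in those labelled KO. With no filter on dim probes, 5 of 44 clustered protocadherin probes lay below 0 in the cells labelled WT.

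Between the genotype labels, 15 of 62 tested member probes were higher and 4 lower in the cells labelled KO at low density, against 6.86% and 7.07% of 23339 probes. At high density 16 of 73 were higher and 3 lower, against 6.41% and 6.62% of 23617 probes. Some genes had several called probes. By gene, 9 of 36 tested were higher and 3 lower at low density, and 11 of 49 and 3 at high density. A tested probe had to be detected under 1 label or more, and this filter can itself favour probes that differed. The density effect itself differed between the labels by at least 2-fold for 4 probes upward (KO minus WT) and 2 downward among 55 tested, against 3.78% and 4.22% of 21545 probes. These contrasts share the same 4 arrays and are not independent of each other. In all, 31 of 77 member probes tested in any contrast, of 22 genes, were called in 1 contrast or more (40.3%, against 27.8% of all probes).

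**Figure D3:**
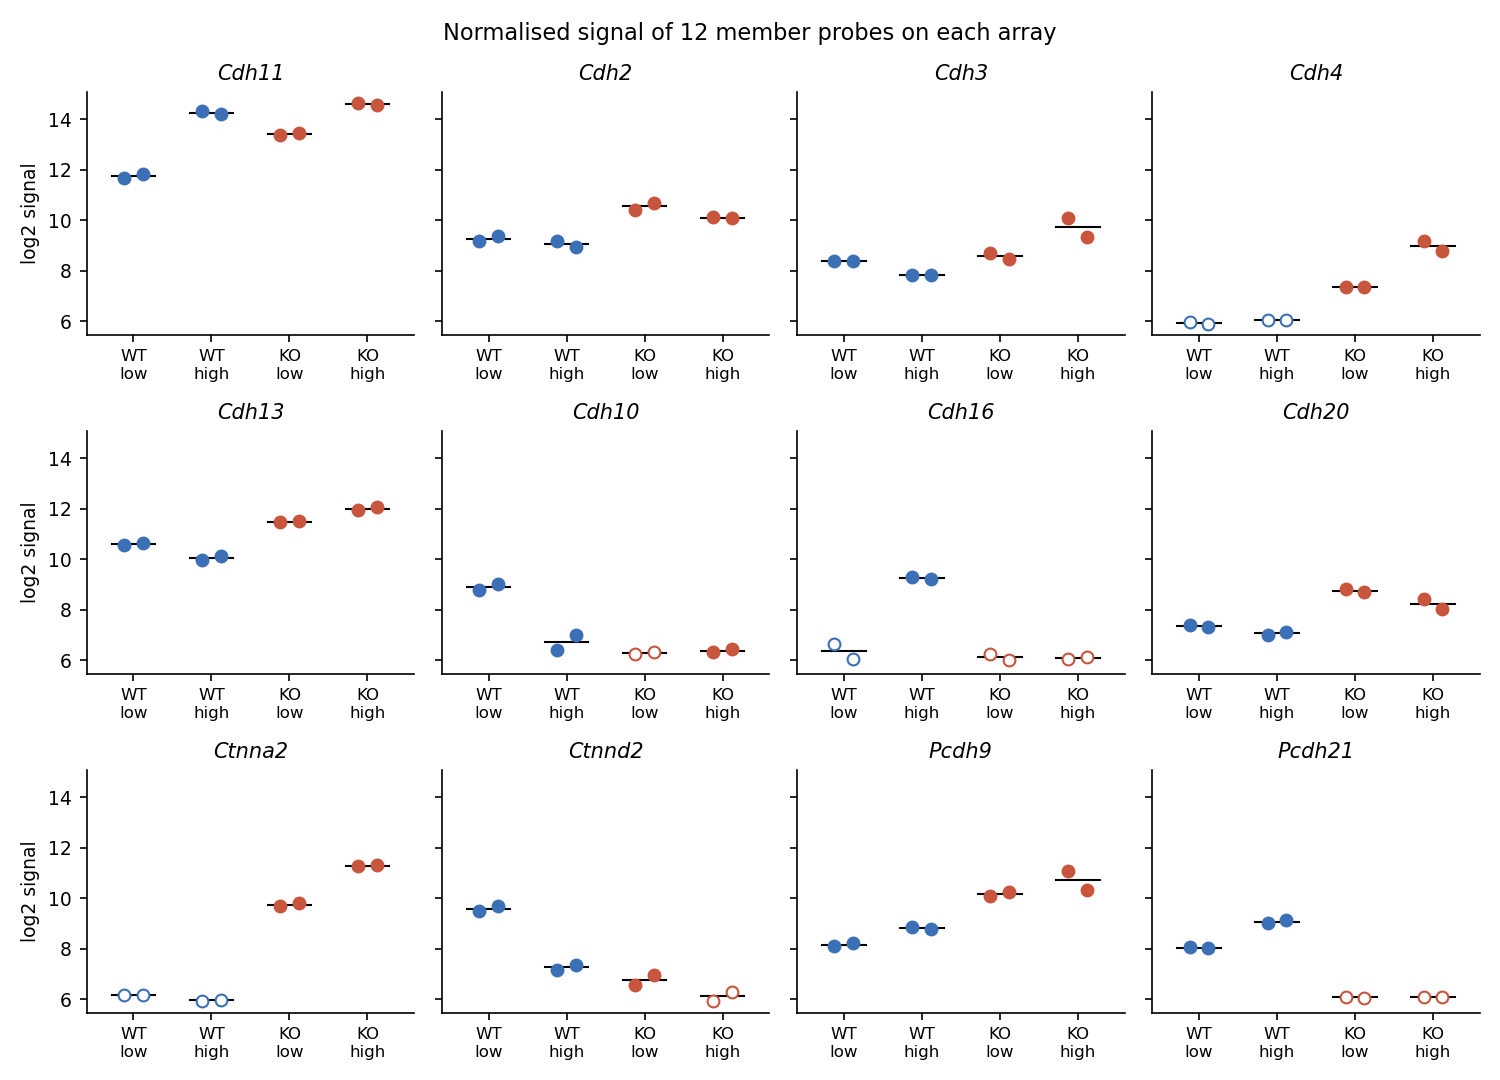
Log2 signal (vertical axis) of 12 member probes, 1 for each gene, on every array of the 4 groups. Points are single arrays, filled where the probe was well above background on both arrays of the group and open otherwise, and black lines are means. Cdh4 and Ctnna2 were above background in the cells labelled KO only, Pcdh21 in those labelled WT only, and Cdh16 only in the cells labelled WT at high density.

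Among the type I cadherins, N-cadherin (Cdh2), P-cadherin (Cdh3) and R-cadherin (Cdh4) were detected. N-cadherin is the type I cadherin typical of fibroblasts and neurons. The probe of Cdh2 at the 3' side of the gene (chromosome 18, 16732027 to 16732056, build mm8) read 9.17 and 9.37 at low and 9.17 and 8.92 at high density in the cells labelled WT. In those labelled KO it read 10.41 and 10.69, then 10.12 and 10.07. All arrays labelled KO lay above all labelled WT, and the probe was higher by 1.28 at low and 1.05 at high density (log2). The second value was 0.99 under median centring and 0.94 without the second array of each label, below the size called. Its density effects, -0.22 and -0.46, were below the size called. The other Cdh2 probes, up to 183 kb away, were dim and detected in the cells labelled KO only, at least 1.21-fold and 1.36-fold higher at low density.

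P-cadherin, first known from placenta and basal layers of epithelia, had density effects of opposite sign under the labels. The Cdh3 probe (chromosome 8, 109444722 to 109444782) read 8.38 and 8.39 at low and 7.84 on both arrays at high density in the cells labelled WT, a log2 change of -0.54. In those labelled KO it went from 8.69 and 8.46 to 10.09 and 9.33, and rose by 1.14, or 0.88 without the first array, which is below the size called. The difference between the density effects was 1.68. The labels lay 0.19 apart at low density, and 1.87 apart at high density with the KO label higher.

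R-cadherin (Cdh4), known from retina and brain, was detected in the cells labelled KO only, by 1 of its 3 probes (chromosome 2, 179828521 to 179828580). That probe read 7.35 and 7.37 at low and 9.16 and 8.78 at high density, and rose by 1.61. In the cells labelled WT it stayed between 5.90 and 6.05, not well above background. It was therefore at least 2.29-fold higher in the cells labelled KO at low and at least 6.73-fold at high density. Such a bound sets the dim side at the lowest signal that any detected probe gave in that channel, where the probe itself was lower. The other Cdh4 probes, up to 51.9 kb away on the 5' side, were above background on 1 array labelled KO each.

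Of 13 type II cadherins, Cdh10, Cdh11, Cdh18 and Cdh20 were detected. Cdh11, or OB-cadherin, which fibroblasts and osteoblasts use, gave the largest rise among the members detected in all groups. Its probe at 105523125 to 105523184 on chromosome 8 read 11.66 and 11.82 at low and 14.31 and 14.22 at high density in the cells labelled WT. In the cells labelled KO it read 13.37 and 13.45, then 14.64 and 14.56. The 4 groups did not overlap, and the lowest was the low density culture labelled WT. Cdh11 rose by 2.52 in the cells labelled WT and by 1.19 in those labelled KO, and the genotype difference was 1.67 at low and 0.34 at high density. A second probe of the same region (start 105522702) gave 2.50 and 1.15 with density, and 1.89 and 0.53 between the labels. The density effects of these probes differed by -1.34 and -1.35 (KO minus WT). Under median centring their effects in the cells labelled KO were 0.63 and 0.64, below the size called, and the second probe gave 0.73 without the first array labelled KO. The last probe, 34.4 kb away (start 105557135) on the 5' side of this minus strand gene, gave 0.77 and 0.42 with density, and 1.19 and 0.84 between the labels.

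Cdh10, a cadherin of brain, was highest in the low density culture labelled WT. Its brightest probe (chromosome 15, 18958312 to 18958371) read 8.79 and 9.01 there, against 6.41 and 6.99 at high density, and 6.23 to 6.44 on the arrays labelled KO. It fell by 2.20 with density in the cells labelled WT, gave 0.11 in those labelled KO, and the effects differed by 2.31. With the low density side labelled KO above background on 1 of 2 arrays, the difference is not exact, and it was 4.13 with the processed signals of the scanner software. At low density it was lower by -2.63 in the cells labelled KO, for the same reason not an exact value. The probe at 18764695 to 18764754, nearer the 5' end, was detected only in the low density culture labelled WT, at 7.19 and 7.31. It was at least 1.92-fold lower at high density and at least 2.23-fold lower in the cells labelled KO. Its log2 change with density was -0.88 without the first array labelled WT, below the size called. Another of its 7 probes was also detected in that culture only, at 6.66 and 6.62, and 4 were detected in no group.

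The promoters of 5 members with large differences between the labels are shown. The reference table held 28 of the genes, with 35 promoters. Each is the RefSeq sequence of 250 bases before and 50 bases after the transcription start in build GRCm38.p6, 5' to 3' on the gene strand. Capitals mark 2 short motifs searched on both strands, the E-box CACCTG, which Snail and Zeb factors bind and 20.2% of all 32851 promoters hold, and GGAATG, the core bound by TEAD factors, which 14.7% hold. No promoter shown holds both. The promoter of Cdh10 (chr15:18820079-18820378, plus strand) holds the TEAD core on the other strand, 234 bases before the start.
Cdh10: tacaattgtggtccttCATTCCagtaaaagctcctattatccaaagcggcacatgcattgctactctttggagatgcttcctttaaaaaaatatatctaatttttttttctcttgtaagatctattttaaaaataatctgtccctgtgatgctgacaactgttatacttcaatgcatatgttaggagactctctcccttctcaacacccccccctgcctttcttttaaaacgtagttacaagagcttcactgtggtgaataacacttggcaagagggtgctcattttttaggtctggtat

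Cdh20, found in developing nervous tissue, had 1 of 2 probes detected (chromosome 1, 106821834 to 106821893). It read 7.37 and 7.33, then 7.00 and 7.11 in the cells labelled WT, and 8.82 and 8.68, then 8.42 and 8.03 in those labelled KO. The labels did not overlap, and the KO label was 2.64-fold higher at low and 2.25-fold at high density (log2 of 0.92 without the first arrays, below the size called). Its log2 density effects were -0.29 and -0.52. Both detected probes of Cdh18 were detected in the cells labelled WT at high density only, at 6.75 to 6.94, with density effects of 0.44 and 0.42. Their low density side was above background on 1 of 2 arrays, so these effects are not exact.

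Other cadherins detected were Cdh13, Cdh16 and Cdh26. Cdh13, or T-cadherin, has no tail, is held in the membrane by a lipid anchor, and binds adiponectin. Its probe at the 3' side (chromosome 8, 122200046 to 122200105) read 10.58 and 10.64 at low and 9.98 and 10.11 at high density in the cells labelled WT, against 11.46 and 11.50, then 11.94 and 12.05 in those labelled KO. Its log2 density effects were -0.57 and 0.52. Neither reached 2-fold alone. Their difference was 1.08, and 0.92 under median centring, which is below the size called. The cells labelled KO were higher by 0.87 at low and 1.95 at high density. The other probe, 462 kb away on the 5' side, was detected at low density in the cells labelled KO only, at least 1.29-fold higher there.

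Cdh16, the cadherin of kidney tubules, was detected in 1 group only. Its probe (chromosome 8, 107503330 to 107503389) read 9.30 and 9.22 in the cells labelled WT at high density, and 5.99 to 6.63, not well above background, on all other channels. It was at least 7.55-fold higher than at low density, and at least 8.86-fold higher than in the cells labelled KO at high density. Cdh26 read 6.52 and 6.32, then 7.43 and 7.22 in the cells labelled WT, where it was not detected at low density and at least 1.87-fold higher at high density. Under the KO label it went from 6.69 and 6.44 to 8.40 and 8.47 and rose by 1.87, to a level 1.11 above the other label (0.97 without the second arrays, below the size called).

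Of the catenins, beta catenin (Ctnnb1), alpha-E-catenin (Ctnna1) and p120 (Ctnnd1), the partners that all classical cadherins share, were detected in all groups. Beta catenin also carries the Wnt signal to the nucleus. Its 3 probes (chromosome 9, starts 120804855, 120808358 and 120808854) gave density effects of 0.55, 0.60 and 0.68 in the cells labelled WT, below the size called. In those labelled KO they gave 1.13, 0.94 and 0.78. The probe at 120804855 read 9.42 and 9.73, then 10.81 and 10.59, and was the only one of them to be called. It gave 0.86 without the first array and 0.91 under median centring, below the size called. All 12 single array values lay above 0, and the labels differed by at most 0.39 at either density.

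Alpha-E-catenin showed no called change. Its probes (starts 35380449 and 35308540) gave -0.16 and -0.04 with density in the cells labelled WT, and 0.12 and 0.73 in those labelled KO. The p120 probes on chromosome 2 (starts 84402395 and 84404570) gave -0.74 and -0.66 in the cells labelled WT, and -0.24 and -0.29 in those labelled KO, negative on every array. The remaining p120 probe was not above background.

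The catenins of neurons differed most. Alpha-N-catenin (Ctnna2), which takes the place of alpha-E-catenin in nerve cells, was found in the cells labelled KO. Its probe at 76811264 to 76811322 on chromosome 6 read 9.68 and 9.80 at low and 11.25 and 11.30 at high density there, and rose by 1.53. It read 5.91 to 6.18, not well above background, in the cells labelled WT. It was at least 11.4-fold higher in the cells labelled KO at low and at least 33.3-fold at high density, the largest difference of any member. The neighbouring probe at 76811587 rose by 1.34 with density. It was above background on 1 of the arrays labelled WT (7.25 and 7.30) and not on the other (6.23 and 6.02), so its differences between the labels, 1.70 at low and 3.12 at high density, are not exact. By dye the first was 1.16 and 2.24. The last probe, 718 kb away on the 5' side, was dim, detected in the cells labelled KO only, and at least 1.27-fold higher at low and 1.70-fold at high density. The promoter (chr6:77979618-77979917, minus strand) holds 1 E-box, 182 bases before the start.
Ctnna2: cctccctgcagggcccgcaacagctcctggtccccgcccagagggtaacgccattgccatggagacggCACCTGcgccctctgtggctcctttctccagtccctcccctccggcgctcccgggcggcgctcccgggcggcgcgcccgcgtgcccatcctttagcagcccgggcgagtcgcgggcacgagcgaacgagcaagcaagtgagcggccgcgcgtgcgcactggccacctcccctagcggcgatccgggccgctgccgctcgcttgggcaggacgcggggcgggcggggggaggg

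Delta-2-catenin (Ctnnd2), a relative of p120 in neurons, showed the opposite pattern. Its probe at 30972511 to 30972570 on chromosome 15 read 9.47 and 9.70 at low and 7.16 and 7.36 at high density in the cells labelled WT, and fell by 2.33. In those labelled KO it read 6.58 and 6.97, then 5.94 and 6.30, a change of -0.65 with the high density side not well above background. The labels did not overlap. The cells labelled KO were lower by -2.82 at low density and at least 2.21-fold lower at high density, and the density effects differed by 1.67. Since the high density side labelled KO was dim, this difference is not exact, and it was 0.07 with the processed signals of the scanner software. Without scaling between arrays the difference at high density was -0.96. The second probe, 18.8 kb away, was detected in the low density culture labelled WT only, at least 1.59-fold above high density. The promoter (chr15:30172284-30172583, plus strand) holds neither motif.
Ctnnd2: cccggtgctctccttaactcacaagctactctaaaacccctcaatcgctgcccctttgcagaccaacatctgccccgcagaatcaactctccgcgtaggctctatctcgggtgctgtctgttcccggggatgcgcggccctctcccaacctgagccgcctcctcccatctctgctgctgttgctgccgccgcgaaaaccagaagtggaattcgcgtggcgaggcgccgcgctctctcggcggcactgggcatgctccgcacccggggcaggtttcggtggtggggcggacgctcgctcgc

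Since Cdh4, Cdh10, Cdh20, Ctnna2 and Ctnnd2 are best known from nervous tissue, neural and glial markers are given beside them. Nes, Tubb3 and S100b were detected in all 4 groups, while Sox2 and Dcx were detected in none, and Sox10 and Ngfr on single arrays labelled KO. The Nes probe read 13.23 and 13.26, then 11.06 and 11.04 in the cells labelled WT, and 7.15 and 6.94, then 7.48 and 7.09 in those labelled KO. Tubb3, a tubulin of neurons, read 9.86 and 9.87, then 8.71 and 8.64, against 9.90 and 9.83, then 8.95 and 8.63. S100b, a calcium binding protein of glia, read 7.15 and 6.67, then 11.38 and 11.35, against 7.10 and 6.80, then 9.07 and 8.78. Nes, which encodes an intermediate filament of neural and other precursor cells, was lower by -6.20 and -3.77 in the cells labelled KO. Any part of these cells in the results was not tested, and in such bulk samples fewer cells of a type and less RNA per cell cannot be told apart.

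Of 13 non-clustered protocadherins, 8 were detected. Pcdh9, a large adhesion protein found mainly in brain, differed by at least 2-fold between the labels at 4 of its 5 probes on chromosome 14. The probe at 92768758 to 92768817 read 8.10 and 8.21, then 8.84 and 8.78 in the cells labelled WT, and 10.09 and 10.25, then 11.08 and 10.34 in those labelled KO. It was higher by 2.02 at low and 1.90 at high density. The probes at 92770031, 92766559 and 91897343 gave 1.79, 1.88 and 1.58 at low and 2.22, 2.09 and 2.16 at high density. In the low density culture labelled WT the probe at 91897343 was above background on 1 of 2 arrays (6.46 and 6.24), so its low density value is not exact. No array labelled WT reached the level of an array labelled KO at the same density for any of them. The fifth probe was dim, detected in the cells labelled KO only, and at least 1.25-fold higher there at low density. With density the probe at 91897343 rose by 1.34 in the cells labelled KO, while the 3 probes detected in all groups gave 0.54 to 0.98. In the cells labelled WT these 4 probes gave 0.53 to 0.76. The promoter with the lower start of the 2 listed (chr14:93890620-93890919, minus strand) holds neither motif.
Pcdh9: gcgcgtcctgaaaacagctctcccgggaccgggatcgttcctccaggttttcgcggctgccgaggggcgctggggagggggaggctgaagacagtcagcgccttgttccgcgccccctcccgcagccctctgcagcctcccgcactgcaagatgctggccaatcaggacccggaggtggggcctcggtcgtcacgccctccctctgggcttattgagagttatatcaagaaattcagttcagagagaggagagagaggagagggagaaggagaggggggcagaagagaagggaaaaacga

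Pcdh21 (now Cdhr1), a protein of the photoreceptor outer segment, was detected in the cells labelled WT only. Its probe (chromosome 14, 35989442 to 35989501) read 8.05 and 8.03 at low and 9.02 and 9.12 at high density, and rose by 1.03 (0.96 without the second array and 0.92 under median centring, below the size called). The arrays labelled KO read 6.04 to 6.09. The cells labelled WT were at least 3.87-fold higher at low and at least 7.64-fold higher at high density. The promoter of Cdhr1 (chr14:37098298-37098597, minus strand) holds 1 E-box, 119 bases before the start.
Cdhr1: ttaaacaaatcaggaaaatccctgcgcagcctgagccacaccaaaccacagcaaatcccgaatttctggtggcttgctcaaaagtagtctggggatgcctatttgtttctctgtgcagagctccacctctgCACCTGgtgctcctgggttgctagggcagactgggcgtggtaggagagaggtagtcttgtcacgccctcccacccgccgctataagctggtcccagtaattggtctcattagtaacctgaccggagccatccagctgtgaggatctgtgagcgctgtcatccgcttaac

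Pcdh7 (chromosome 5), also called BH-protocadherin, gave 0.42 with density in the cells labelled WT and -0.41 in those labelled KO. Pcdh1, Pcdh18 and both Pcdh19 probes were detected in all groups with no called change, their density effects lying between -0.26 and 0.41. Pcdh17 and Pcdh20 were detected only in the cells labelled WT at high density.

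The clustered protocadherins lie in a row on chromosome 18 in 3 groups, Pcdha, Pcdhb and Pcdhg. A Pcdhb gene is a single exon with its own promoter, while Pcdha and Pcdhg variable exons are joined to constant exons that all members of their group share. Of the 29 Pcdhb probes, the mean log2 ratio of high over low density was above 0 for 28 in the cells labelled WT and for 27 in those labelled KO with no filter on dim probes, against 49.5% and 49.7% of all probes. Most of these ratios were under 2-fold. The genes of the group are similar in sequence, and whether their probes share signal was not tested.

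Of the 15 Pcdhb probes detected in all 4 groups, all 15 lay above 0 in the cells labelled WT, with a median of 0.69, and 14 in those labelled KO, with a median of 0.74. Pcdhb7 (37470650 to 37470709) read 6.75 and 6.52, then 7.74 and 7.57 in the cells labelled WT, and 6.42 and 6.29, then 7.59 and 7.39 in those labelled KO. The densities did not overlap under either label, and it rose by 1.02 and 1.13. The largest rise was that of Pcdhb14 (37576341 to 37576400), by 1.22 in the cells labelled WT and 1.60 in those labelled KO. Pcdhb20 just reached 2-fold in the cells labelled WT (log2 ratios of 1.14 and 0.86 on the arrays) and rose by 1.20 in those labelled KO. Pcdhb21 rose by 1.20 in the cells labelled KO, against 0.88 in those labelled WT. Of the Pcdhb15 probes, 1 rose by 1.21 in the cells labelled KO and the other just reached 2-fold, against 0.75 and 0.59 in those labelled WT. Together 3 of 22 tested Pcdhb probes rose in the cells labelled WT (13.6%, against 7.61% of all probes) and 6 of 24 in those labelled KO (25%, against 5.9%), and none fell. Leaving out an array put Pcdhb7 labelled WT at 0.99, Pcdhb20 at 0.86 under either label, and Pcdhb21 and the dimmer Pcdhb15 probe labelled KO just under 2-fold. Under median centring Pcdhb20 gave 0.90 labelled WT and Pcdhb21 0.93 labelled KO. The tested Pcdhb probe below 0 was that of Pcdhb22, at the far end of the row, with 0.55 in the cells labelled WT and -0.22 in those labelled KO. The Pcdhb17 probes gave 0.48 and 0.45 in the cells labelled WT, and 0.06 and 0.04 in those labelled KO.

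**Figure D4:**
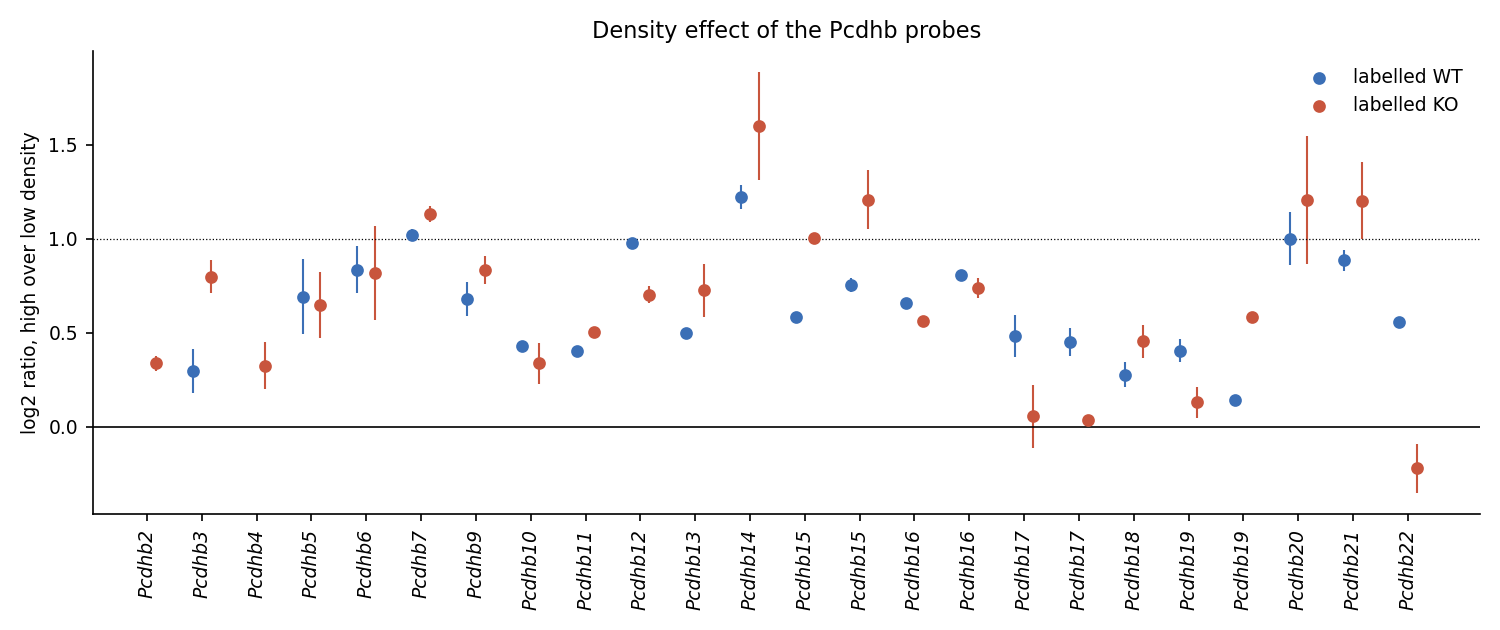
Log2 ratio of high over low density (vertical axis) for each Pcdhb probe tested, in order of gene number, in the cells labelled WT and KO. Points are means of the dye swap, vertical lines join its arrays, and the dotted line marks 2-fold. All points labelled WT lie above 0, and Pcdhb22 labelled KO lies below 0 at -0.22. With no filter on dim probes, 1 of 29 Pcdhb probes lay below 0 labelled WT and 2 labelled KO.

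Between the labels the Pcdhb probes went both ways. At low density 10 of 16 tested were higher and 6 lower in the cells labelled KO with both dyes, and at high density 15 and 8 of 24, with medians of 0.33 and 0.23. These are 62.5% and 37.5%, then 62.5% and 33.3%. Over all probes tested the shares were 47.4% and 43.1%, then 45.3% and 40.2%, with a median of 0.04 at each density. Pcdhb20 alone reached 2-fold, higher by 1.19 and 1.39 in the cells labelled KO, with 8.06 and 8.15 at low density labelled WT against 9.19 and 9.40 labelled KO. Below that size, Pcdhb21 gave 0.63 and 0.94 at low and high density, Pcdhb22 gave 0.78 at low and Pcdhb12 -0.60 at high density.

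The probe named Pcdha9 at 37311078 to 37311137 read 6.38 and 6.30, then 6.54 and 6.74 in the cells labelled WT, and 7.68 and 7.58, then 9.02 and 8.75 in those labelled KO. It rose by 1.26 in the cells labelled KO, and was at least 2.44-fold higher there at low density and 2.24 higher on the log2 scale at high density. The probe named Pcdha6 at 37313337 rose by 1.19 and was 1.06 higher at high density (0.90 without the first arrays, below the size called). These probes lie 185 and 217 kb downstream of the first probe of the same name, toward the end of the group, so their signal cannot be assigned to a single member. Another Pcdha9 probe (start 37282140) was at least 1.88-fold higher at high density under the KO label, where it was detected and the other label was not (log2 of 0.94 without the first arrays, below the size called).

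Likewise 3 probes named Pcdhga7 lie up to 124 kb downstream of the fourth, which was above background on 1 array labelled KO only and left out as an outlier on 1 labelled WT. The bright pair at 37967676 and 37967696 gave 0.97 and 0.99 with density in the cells labelled WT, just under the size called, and 0.65 and 0.70 in those labelled KO. The probe at 37966045 gave 0.68 and 0.25 with density and was 1.15 higher in the cells labelled KO at low density (0.72 at high). Every other Pcdhg probe tested gave at most 0.29 with density.

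**Figure D5:**
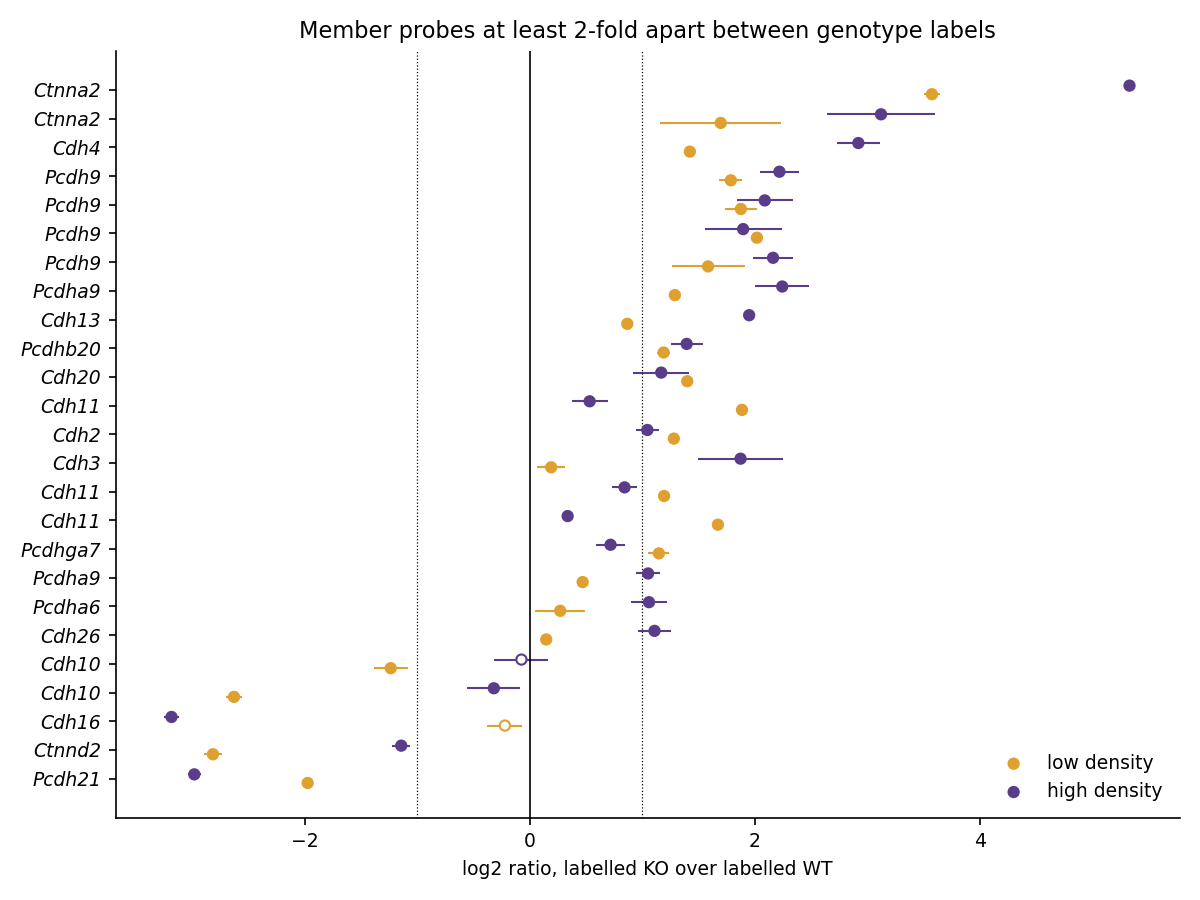
Log2 ratio of the cells labelled KO over those labelled WT (horizontal axis) for the member probes at least 2-fold apart at 1 density or both, at low and high density. Points are means over both dyes, open where the probe was not detected in either genotype at that density, lines join the dyes, and dotted lines mark 2-fold. The ends of the range are Cdh16 at -3.18 and Ctnna2 at 5.33, both at high density against a group not above background (at least 8.86-fold and 33.3-fold).

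The partners of the junction were read from a list of 18 genes on the arrays, each by its brightest probe. Under the WT label 0 of 16 tested rose and 6 fell with density, with a median of -0.53, against 7.61% and 5.72% of all probes. Under the KO label 1 of 17 rose and 3 fell, with a median of -0.37, against 5.9% and 3.73%. The genes that fell most in the cells labelled WT were Jub (now Ajuba, -2.58), a LIM protein that binds alpha catenin, the actin crosslinkers Actn4 (-1.56) and Actn1 (-1.55), and vinculin (Vcl, -1.47), which joins alpha catenin to actin under tension. Pvrl3 (-1.40) and Pvrl1 (-1.21), which encode nectins, were the others. With the KO label Zyx (-1.30), Actn4 (-1.15) and Actn1 (-1.10) fell and Ctnnal1 (1.01) rose. Between the labels, Mllt4 (afadin, which links nectins to actin) was higher in the cells labelled KO by 1.94 and 1.91 and Pvrl2 by 1.34 and 1.16 at low and high density. Jub was higher by 1.43 at high density, where its density effect had differed by 1.88, Zyx lower by -1.27 at high, and Ctnnal1 lower by -1.32 at low density.

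Snail, Twist and Zeb factors, which repress Cdh1 or go with the change from E- to N-cadherin, were detected for 6 of 7 genes in every group. None of the 6 was called with density under either label, although Snai2 labelled WT (1.99-fold up) and Zeb1 labelled KO (1.95-fold up) lay just under the size. Of all probes tested, 7.61% rose and 5.72% fell under the WT label, and 5.9% and 3.73% under the KO label. The density effect differed for Snai2 (-1.15) and Zeb1 (1.18). Between the labels, Twist2 (2.02 and 2.47) and Twist1 (1.17 and 1.05) were higher in the cells labelled KO at low and high density, Zeb1 was lower by -1.71 at low and Snai2 by -1.15 at high density.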

How the data were processed

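Mouse embryonic fibroblast RNA from low and high density cultures was hybridised to 4 Agilent whole mouse genome arrays in 2 colours, with a dye swap of 2 arrays for each genotype. Per the file headers, the authors extracted the scans with Agilent Feature Extraction 10.5.1.1, and the deposited files hold mean and local background intensity for each dye, flags (score 0 or 1) and a log10 ratio of processed signals. The deposited series matrix held that log10 ratio, rounded and turned to high over low density, and was used only for this check. No column of the authors' own tests was used here.

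Intensity was corrected with normexp (offset 50) and loess normalised in limma 3.58.1 (R 4.3.3). Flagged features were left out, features of a probe were averaged, and Aquantile scaled channels for contrasts between genotypes. Density ratios were computed per array and averaged over the dye swap, genotype ratios per dye. Counts and figures were made in Python with numpy and pandas. A probe entered a density contrast when detected (well above background on both arrays of the group) at 1 density or more, in a genotype contrast in 1 genotype or more, and in the difference when tested under both labels. Ratios of dim probes are drawn toward 0 by the offset. With 1 replicate per group no p-value is given, and the number of arrays limits precision. The SD of an array's deviation from its pair mean was 0.10 for WT and 0.15 for KO (log2) over tested probes. The size rule was tested on simulated data. The errors of a simulated pair were opposite and cancelled in its mean, so this gives no error rate for the rule.

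Gene names and positions (mm8) are those of the array annotation. Of 73 names, 72 were RefSeq symbols (GRCm38.p6) and 1 a synonym. Promoters come from RefSeq. Scanner files gave no probe sequences used here, so no exon was assigned.

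Members and lists were chosen with earlier results of these data known. Named are genes with a probe called in 1 of 5 contrasts or more, and Cdh1, Cdh2, Cdh3, Cdh4, Cdh5, Cdh11, Cdh13, Cdh15 and all catenins. From each list of partner genes at most 4 of the largest called changes were to be named, and others named were chosen after their values were seen. Lists covered junction partners, desmosomes, Fat, Dachsous and Celsr genes, cadherin-switch factors, and markers of fibroblast, epithelial, endothelial, neural, muscle and macrophage cells. A single neural and glial marker, and the counts and sums that include it, are not reported here. Alternatives were other background corrections, centring and scaling, filters, a 1.4-fold threshold and leaving out an array.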

Additional observations from a re-analysis of the deposited data

Results flagged for a closer look

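With density, 5 of the 55 member probes tested under both labels moved one way on both arrays labelled WT and the opposite way on both arrays labelled KO (9.09%, against 14.5% of the 21545 probes so tested on the whole array). These differences were not tested, since each label had 1 replicate. Subtracting the WT from the KO density effect gave 2.31 for Cdh10 (chromosome 15, 18958312 to 18958371), where the effect of 0.11 in the cells labelled KO was near the spread of a dye swap and 1 of its low density arrays was not above background, so that the difference is not exact. The same difference was 1.68 for Cdh3 and 1.08 for Cdh13. For Pcdh7 and Pcdhb22 it ran the other way, at -0.83 and -0.78, under the 2-fold size.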

How the results depend on the processing

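Of 71 called values of single probes, recomputed under up to 5 other background corrections, centrings or scalings (322 values), 0 changed sign, 147 moved by less than the spread of a dye swap and 175 by more. Over these and the settings that leave out an array, in 25 cases, for 19 of the 71 values, the size fell under 2-fold: 8 under median centring, 10 and 5 without the first and second arrays, and 1 each with the processed signals (the Ctnnd2 difference of density effects, 0.07 against 1.67) and without scaling between arrays. The processed signals of Feature Extraction, which differ in background correction, normalisation and offset, called 30 probes with density in the cells labelled WT (10 by the main settings) and 31 in those labelled KO (17), and 29 at low and 32 at high density between the labels (19 each). The normexp offset of 10 alone gave 17 in the cells labelled WT and 24 in those labelled KO. Asking for detection in every channel left 11 at low and 12 at high density, and dropping the filter raised the difference of density effects from 6 to 12. At 1.4-fold the counts were 38 and 40 with density, 16 for the difference, and 30 and 35 between the labels. Leaving out 1 array of each pair gave 8 to 11 (WT) and 13 to 19 (KO) with density, 7 for the difference, and 19, and 16 to 20, between the labels. Without scaling between arrays the median of all probes between the labels moved from 0.04 to 0.27 at both densities, and 22 and 21 members were called. No paired analysis was possible because each genotype and density had 1 replicate. Signal over background limited the 41 probes above background in no channel.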

Other observations

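Large cadherins of the Fat, Dachsous and Celsr families, which sense neighbours upstream of the Hippo pathway in flies, were read, with Fjx1, by 9 genes, of which 4 or 5 were detected in a group. Dchs1 rose by 2.11 under the WT label and by 2.61 under the KO label with density, and Fat4, its partner, by 2.82 and 1.73. The median over the tested genes was 0.96 (2 of 4 rose, 1 fell, against 7.61% and 5.72% of all probes) and 1.52 (3 of 5 rose, 0 fell, against 5.9% and 3.73%). Fat1 fell by 1.03 in the cells labelled WT and gave -0.29 in those labelled KO. Fjx1, a secreted relative of the fly kinase four-jointed, rose by 1.52 in the cells labelled KO and gave -0.19 in those labelled WT. At high density it was 2.41 higher under the KO label, Fat1 was 1.20 higher and Fat4 lower by -1.43. Celsr1, Celsr2, Fat2 and Fat3 were detected in no group.

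Desmosomes join epithelial cells through the cadherins desmocollin and desmoglein, and 0 of the 9 such genes on the arrays were detected in any group. Of the 16 desmosome genes 4 were detected in each group. Pkp2, a plaque protein, fell by 2.20 under the WT label and 1.74 under the KO label with density, while Ppl rose by 1.21 and 1.01. Pkp1 fell by 2.93 in the cells labelled WT and was lower by -3.66 in the low density culture labelled KO, where 1 of 2 arrays was above background, so that this value is not exact. Perp, a membrane protein of the junction and a target of p53, was lower by -5.30 at low and -5.87 at high density, again under the KO label.

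Of 6 macrophage markers 3 were detected in each group labelled WT and 4 in each labelled KO, with summed linear signals of 892 to 990 and 1672 to 5561. Lyzs was higher under the KO label by 3.90 at low and 4.75 at high density, while Cd14 was lower by -1.80 and -1.59. The low density value of Lyzs is not exact, since the side labelled WT (6.58 and 6.18) was not well above background. Cd68 gave -0.10 and -0.38. Csf1r gave 0.43 and 0.57, but its dyes differed in sign at each density (-0.10 and 0.96, then -0.07 and 1.21). It was not detected in the cells labelled WT at high density. Emr1 and Ptprc were detected in none, and their part in the results was not tested. Of 5 muscle markers only Actc1 was detected.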
